A study of Mus musculus with 4 samples.

Results

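The growth factor receptors of myeloid and lymphoid cells were followed in CD45+ immune cells of the mouse spinal cord, together with both ligands of the receptor Csf1r. The set was named gene by gene and holds 9 of the 39066 genes in the deposited table: the ligands Csf1 and Il34, and the receptor genes Csf1r, Csf2ra, Csf2rb, Csf3r, Flt3, Kit and Il7r. All 9 were found. Cells came from 3 conditions: uninjured Swiss Webster mice, and mice at 7 and at 60 days after a moderate contusion of the thoracic cord (7 dpi and 60 dpi). Labels give the mice as female and 10 to 12 weeks old. The study describes this as the age of the mice that received the contusion. Mice of the latest time point were therefore older than the label when collected. The part of age in the differences between libraries was not tested. A short block of cord at the lesion level, without meninges, was pooled from 6 mice for each condition. The study's sort kept small, compact cells with high or low CD45, and the labels name no transgene or drug. Single live cells were read in nanowells with a 3' SMART-seq kit that counts reads and not molecules. Cells at 3 dpi were not analysed here.

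These receptors belong to several families. Csf1r, Kit and Flt3 are receptor tyrosine kinases: Csf1r binds CSF1 and IL-34 and keeps microglia and macrophages alive, Kit binds stem cell factor on progenitors and mast cells, and Flt3 binds FLT3 ligand on lymphoid progenitors and dendritic cells. Csf2ra is the ligand-binding chain for GM-CSF and signals through the common beta chain Csf2rb, while Csf3r is the receptor for G-CSF and is best known from neutrophils. Il7r pairs with the common gamma chain Il2rg and is needed by developing B cells, naive and memory T cells and innate lymphoid cells.

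Each cell was placed in a class by the summed CPM (counts per 1e6 reads of the cell) of a few genes. Microglia had at least 2000 CPM of C1qa, C1qb and C1qc and under 500 CPM of Cd79a and Cd79b, B cells the reverse, and T cells at least 300 CPM of Cd3d, Cd3g and Trbc2 with neither of the other sums. In the order uninjured, 7 dpi and 60 dpi there were 303, 324 and 125 microglia, 27, 31 and 483 B cells, and 25, 9 and 106 T cells. Cells past both the microglia and the B cut numbered 5, 39 and 79 and were kept apart as double-positive cells, and 66, 51 and 152 cells were unassigned. Levels are given as CPM of the reads summed over a class with an exact Poisson 95% interval, and shares of cells with an exact Clopper-Pearson interval. Both cover counting error only, since reads amplified by PCR are not independent molecules. With 1 library for each condition no test between conditions was possible, so ratios are log2 ratios of CPM plus 1, and a gene is called when it differs at least 2-fold and has at least 10 CPM on either side of the ratio.

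Some properties of the libraries touch every value below. Reads added up to 306721154 for the uninjured cord, 365066887 at 7 dpi and 382779731 at 60 dpi, with medians of 554836, 663734 and 287134 per cell. After thinning to 50000 reads, Xist was read in 272 of 419, 0 of 452 and 442 of 918 cells and a Y-linked gene in 0, 205 and 66 cells, so the libraries labelled 7 dpi and 60 dpi hold cells that go against the label female. At 60 dpi 33 of the 66 cells also held Xist. At 7 dpi Xist was found in none of the 452 cells, so that library as a whole goes against the label. Ratios of the 7 dpi library to another library therefore cannot separate injury from sex. The part of sex in them was not tested. Leaving out cells with a Y-linked read, as done below, removes cells where such a gene was detected. It does not leave a library of known sex, and the thinned cells left at 7 dpi also lack Xist. Pairs of libraries shared 43 to 102 cell barcodes, and the overlap that would arise by chance alone was not worked out. All 7 microglia markers that the class rule did not use (P2ry12 and Tmem119 among them) were at 10 CPM or more in microglia of every library, but also in T cells of every library. Their summed level was 28146, 17825 and 12012 CPM in microglia, 2452, 2733 and 1794 CPM in B cells and 1710, 2952 and 2253 CPM in T cells. Microglia at 60 dpi also held 127 CPM of the B cell gene Ms4a1, against 8.06 CPM in uninjured microglia. The T class is mixed in every library: the summed T cell markers were 1663, 1311 and 1493 CPM and the granulocyte markers 16627, 118630 and 15525 CPM, and Cd3e was at 0.292 CPM at 7 dpi. Granulocyte markers in microglia were at 40.2, 5785 and 1174 CPM, and Nkg7, a gene of cytotoxic cells, reached 469 to 1528 CPM in T cells. The part of such mixed cells in the contrasts between classes was not tested.

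Short stretches from the start regions of Csf2ra and Csf3r are shown because both receptors were higher in microglia than in B cells and hold the letters GAGGAA, the core that the myeloid factor PU.1 (gene Spi1) binds. RefSeq promoters of GRCm38.p6 were matched for 6 of the 9 genes, and letters were searched on both strands in the 250 bases before the RefSeq start. The gene positions given below are from GENCODE, and its gene starts can differ from those of RefSeq. By those positions the Csf3r stretch, part of the Csf2ra stretch and the whole window of Il7r lie inside the gene. Capitals mark the match.
Csf2ra, chr19:61228419-61228448, minus strand: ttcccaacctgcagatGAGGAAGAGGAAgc
Csf3r, chr4:126024556-126024585, plus strand: ctcaacctccttcctgaGAGGAAggggctg
Csf2ra held 2 adjoining copies, starting at positions -14 and -8 from the RefSeq start, and Csf3r held 1 at -86. Kit held 1 copy, and the windows of Csf1, Flt3 and Il7r held none. The letters occur in 23.3% of 32851 promoters and at least 2 times in 3.54%, so a single copy is common and says nothing of binding. Spi1 itself was read at 71.1, 40.2 and 50.5 CPM in microglia, and at 65.5, 44.2 and 34.5 CPM in B cells, in the order uninjured, 7 dpi and 60 dpi.

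Csf1, the ligand that was read, was found in a minority of microglia, and its level in microglia was highest at 7 dpi. The gene lies on chromosome 3 (107741048-107760469, minus strand, GRCm38). In microglia its level was 23.9 CPM (23.3–24.5) in the uninjured cord, 66.9 CPM (65.9–68.0) at 7 dpi and 8.63 CPM (7.82–9.50) at 60 dpi. The 7 dpi level was 1.45 above the uninjured level on the log2 scale, and the 60 dpi level was lower, with a log2 ratio of -1.37. Both passed the 2-fold rule, as did 14.4% of 8708 genes that were higher at 7 dpi and 21.9% of 9219 genes that were lower at 60 dpi. Most microglia had no read: 11 of 303 uninjured microglia reached 10 CPM, or 3.63% (95% interval 1.83–6.40%), against 46 of 324 at 7 dpi, or 14.2% (10.6–18.5%), and 12 of 125 at 60 dpi, or 9.60% (5.06–16.2%). The share of cells was thus higher at 60 dpi than in the uninjured cord while the summed level was lower, and the intervals of these shares overlap.

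Single cells weighed heavily on the Csf1 sums. One cell gave 50.04% of the uninjured reads of Csf1 in microglia, and 1 cell gave 48.4% at 60 dpi, against 9.87% at 7 dpi. Without the top cell of each library the levels were 11.99, 60.5 and 4.48 CPM, and the log2 ratios were 2.24 at 7 dpi and -1.25 at 60 dpi. The 60 dpi difference no longer passed the 2-fold rule when single-cell CPM were averaged (log2 ratio -0.69) or when cells with a Y-linked read were left out (15.1 CPM, log2 ratio -0.63). Leaving out those cells raised the 7 dpi level to 82.9 CPM, with a log2 ratio of 1.75. In stricter microglia (under 50 CPM of Cd79a and Cd79b), 63 cells at 60 dpi, the 60 dpi level was 0.580 CPM and the log2 ratio -4.02.

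**Figure D1:**
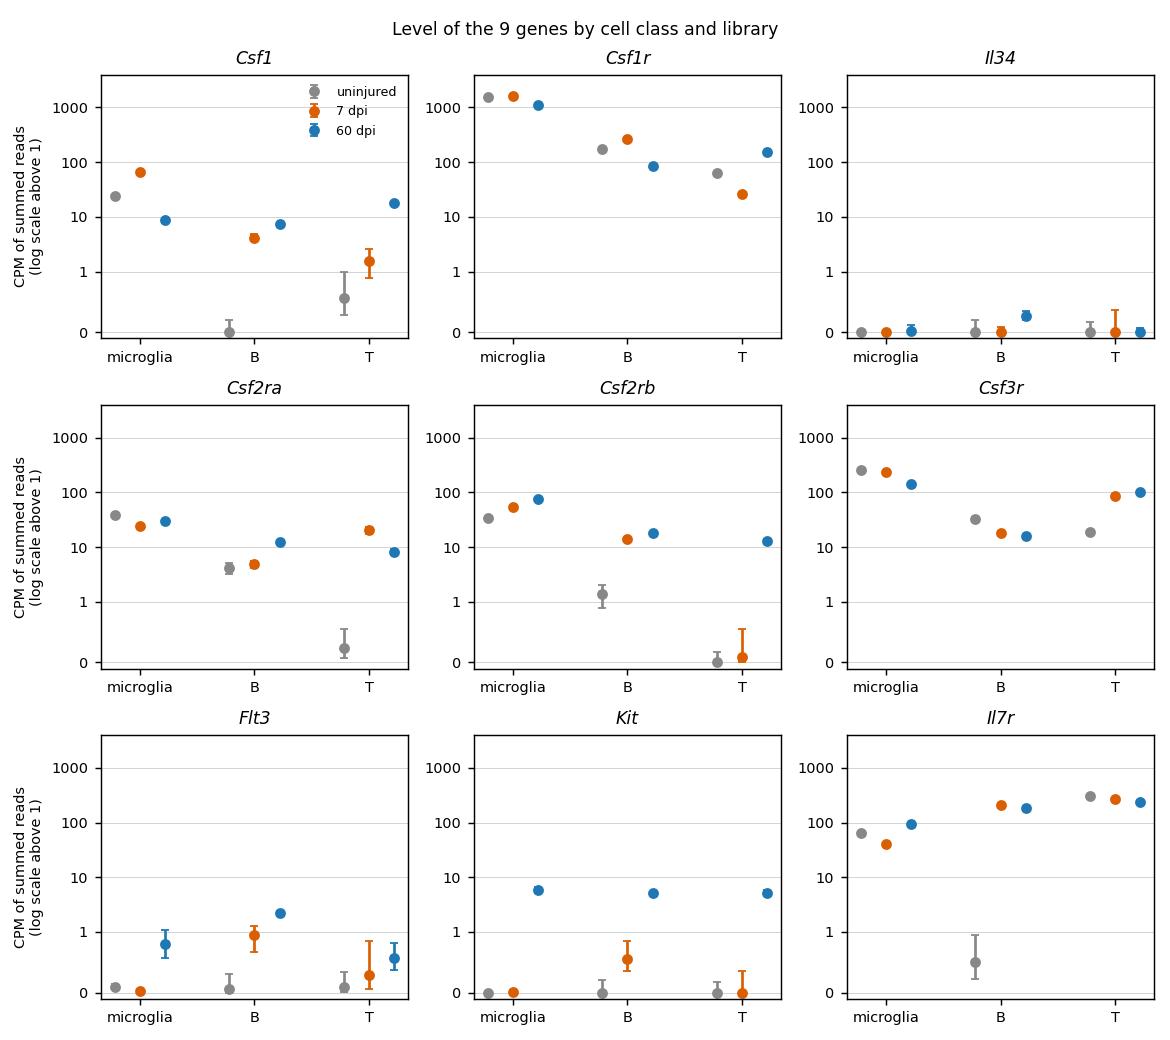
Level of each gene in microglia, B cells and T cells as CPM of the summed reads (log scale above 1), with exact Poisson 95% intervals that cover counting error only; grey is uninjured, orange 7 dpi and blue 60 dpi. Csf1r and Csf3r were highest in microglia in every library, Csf1 in microglia stood at 23.9, 66.9 and 8.63 CPM, and Il7r in B cells at 0.501, 211 and 188 CPM.

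Il34, the other ligand of Csf1r and known mainly from neurons and keratinocytes, was almost absent from CD45+ cells. It lies on chromosome 8 (110741829-110805924, minus strand). No read was found in the 426 uninjured cells or the 454 cells at 7 dpi. At 60 dpi 62 reads fell in 5 of 945 cells, and only 2 cells reached 10 CPM, 1 of them a B cell with 50 of the reads. A count of 0 in uninjured microglia allows at most 0.0128 CPM.

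Outside microglia, B cells had 0 reads of Csf1 in the uninjured cord (up to 0.167 CPM) and 4.19 CPM at 7 dpi, where 1 cell held 90.2% of the reads. At 60 dpi they had 7.32 CPM, near the 8.63 CPM in microglia. Of the 71 cells with Csf1 at 10 CPM or more at 60 dpi, 36 were B cells and 12 microglia, when B cells were 51.1% of all cells. T cells had 0.565, 1.56 and 17.7 CPM, and at 60 dpi 1 cell held 74.0% of the reads. Double-positive cells stood above microglia at both times after injury, with 84.9 CPM at 7 dpi and 37.1 CPM at 60 dpi, and unassigned cells had 24.03 CPM and 24.1 CPM. Few cells carried these sums. At 10 CPM or more were 6 of 39 and 4 of 79 double-positive cells, and 3 of 51 and 11 of 152 unassigned cells. The classes that held Csf1 reads thus differed between libraries. In the uninjured cord 99.8% of 5598 Csf1 reads were in microglia (95% interval 99.6–99.9%). At 7 dpi microglia held 79.9% of 19816 reads (79.4–80.5%), with 13.4% in double-positive cells and 0.828% in B cells. At 60 dpi microglia held 7.82% of 5357 reads (7.12–8.57%), and B cells held 26.4%, unassigned cells 26.1%, double-positive cells 23.5% and T cells 16.2%. The classes themselves differed in size: microglia were 71.1%, 71.4% and 13.2% of cells and held 76.2%, 64.8% and 12.7% of the reads of all genes. Under the stricter classes the microglial share of Csf1 reads at 60 dpi was 0.299%, from 63 cells.

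Csf1r reads were mostly in microglia, which also held most reads of all genes in the uninjured and 7 dpi libraries. Of the Csf1r reads 87.7% were in microglia in the uninjured cord, 86.3% at 7 dpi and 56.0% at 60 dpi, when B cells held 17.2%. Of the reads of all genes microglia held 76.2%, 64.8% and 12.7%, and B cells 50.5% at 60 dpi. Of the microglia with Csf1 at 10 CPM or more, 67 of 69 also had Csf1r at 10 CPM or more, or 97.1%, against 94.9% of all 752 microglia. By library these were 11 of 11, 45 of 46 and 11 of 12 Csf1 cells, against 98.0%, 97.2% and 81.6% of all microglia, and the difference was not tested. In B cells 11 of 37 Csf1 cells had Csf1r (29.7%, against 38.4% of all B cells). Over the cells of a library Csf1 and Csf1r had a weak relation, with Pearson's r of log2 CPM of 0.06, 0.09 and 0.03 over 426, 454 and 945 cells that share a library, its depth and its mix of classes.

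**Figure D2:**
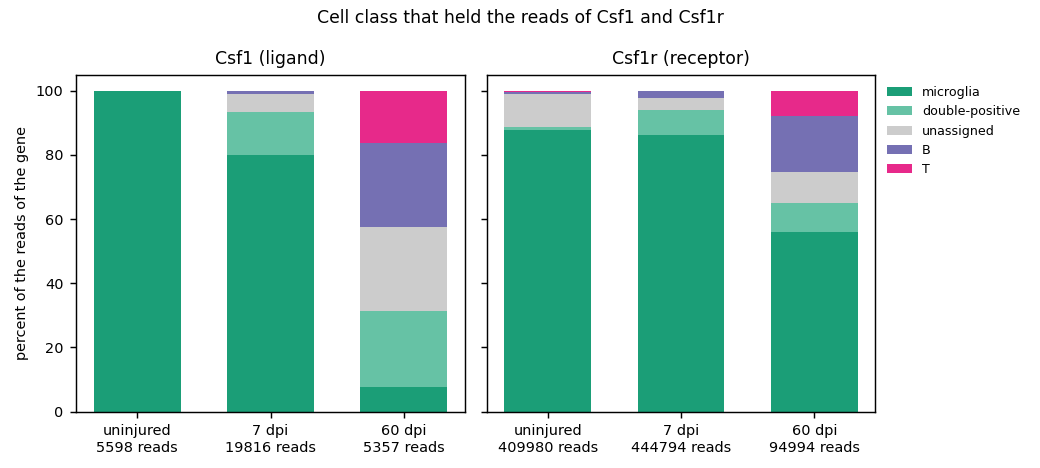
Percent of all reads of the ligand Csf1 (left) and its receptor Csf1r (right) that fell in each cell class, in the uninjured, 7 dpi and 60 dpi libraries; the number of reads stands under each bar. Microglia held 99.8%, 79.9% and 7.82% of the Csf1 reads, and 87.7%, 86.3% and 56.0% of the Csf1r reads. Of the reads of all genes they held 76.2%, 64.8% and 12.7%.

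Csf1r was read in nearly all microglia of the uninjured and 7 dpi libraries, and its level differed little between them. Its level was 1540 CPM (1534–1545) in uninjured microglia, 1623 CPM (1617–1628) at 7 dpi and 1096 CPM (1086–1105) at 60 dpi. These give log2 ratios of 0.08 and -0.49 to the uninjured level, neither past the 2-fold rule. A read was found, after thinning, in 288 of 299 uninjured microglia (96.3%, 95% interval 93.5–98.1%), in 308 of 322 at 7 dpi (95.7%, 92.8–97.6%) and in 98 of 121 at 60 dpi (81.0%, 72.9–87.6%). The interval at 60 dpi lies below the other two.

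The lower part of the distribution differed most at 60 dpi. The median microglial cell had 1301 CPM of Csf1r in the uninjured cord, 1535 CPM at 7 dpi and 581 CPM at 60 dpi, while the first quartiles were 456, 591 and 21.6 CPM and the third quartiles 2462, 2580 and 1691 CPM. B cell genes in the 60 dpi class (127 CPM of Ms4a1) and its lower depth, with a median of 270591 reads per cell against 592845 in uninjured microglia, move with this difference, and their part in it was not tested. In microglia under 50 CPM of Cd79a and Cd79b the levels were 1551, 1610 and 1026 CPM. Without cells with a Y-linked read they were 1733 CPM at 7 dpi and 1261 CPM at 60 dpi.

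In B and T cells Csf1r was present at a lower level than in microglia. B cells had 176 CPM (170–183) in the uninjured cord, 264 CPM (259–269) at 7 dpi and 84.5 CPM (83.2–85.8) at 60 dpi, and T cells had 62.8, 25.6 and 156 CPM. As a percent of the level in microglia of the same library, Csf1r in B cells was at 11.5%, 16.3% and 7.71%. The 7 microglia markers lay at 1.45–12.7%, 0.834–25.5% and 9.10–38.8%, with medians of 7.77%, 12.6% and 12.2%. Csf1r thus lay within the range of the markers in the uninjured and 7 dpi libraries and below all 7 of them at 60 dpi. The same percent in T cells was 4.08%, 1.58% and 14.2%, against marker medians of 5.86%, 21.0% and 14.6%, and at 7 dpi it lay below the lowest marker (3.46%). Reads of Csf1r were found in 44.4%, 71.0% and 38.1% of B cells after thinning, and what part of these reads came from microglial RNA was not tested.

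The B cell difference at 60 dpi (log2 ratio -1.05) passed the 2-fold rule, as did 18% of 8553 genes that were lower there, but it moved with few cells. One of 27 uninjured B cells held 43.2% of the reads of Csf1r there, and without the top cell of each library the log2 ratio was -0.39. With stricter classes it was 0.53 (13 uninjured and 218 B cells at 60 dpi), and in B cells with high MHC class II it was 0.05. In T cells the 60 dpi level was above the uninjured one (log2 ratio 1.30), but the ratio was -0.11 with stricter classes.

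**Figure D3:**
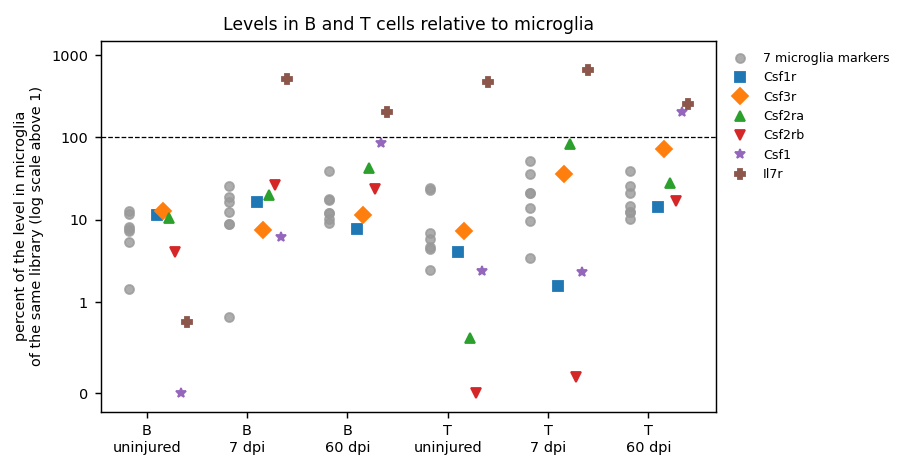
Level in B cells and in T cells as a percent of the level in microglia of the same library (log scale above 1; the dashed line is 100%), for 7 microglia markers (grey circles) and for 6 of the receptor and ligand genes. Csf1r in B cells, at 11.5%, 16.3% and 7.71%, lay within the range of the markers in the uninjured and 7 dpi libraries and below it at 60 dpi, whereas Il7r reached 514% and 203% in B cells at 7 and 60 dpi.

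Csf3r had its highest class level in microglia, though fewer microglia held it than held Csf1r. Microglia held 91.2% of its reads in the uninjured cord, 86.2% at 7 dpi and 34.7% at 60 dpi, when T-class cells held 25.4%. Of the reads of all genes microglia held 76.2%, 64.8% and 12.7%, and T-class cells 12.8% at 60 dpi. Csf3r lies on chromosome 4 (126024550-126044440, plus strand). Microglia had 253 CPM (251–255) in the uninjured cord, 239 CPM (237–241) at 7 dpi and 140 CPM (137–144) at 60 dpi, with log2 ratios of -0.08 and -0.85 to the uninjured level. At 10 CPM or more were 166 of 303 uninjured microglia (54.8%, 95% interval 49.0–60.5%), 185 of 324 at 7 dpi (57.1%, 51.5–62.6%) and 44 of 125 at 60 dpi (35.2%, 26.9–44.2%). Of these cells 164 of 166, 184 of 185 and 38 of 44 also had Csf1r at 10 CPM or more. In stricter microglia the 60 dpi level was 72.2 CPM, and the log2 ratio, at -1.82, then passed the 2-fold rule.

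Cells rich in granulocyte genes held a small part of the Csf3r reads in the uninjured and 7 dpi libraries and a larger one at 60 dpi. Cells with at least 10000 CPM of S100a8 and S100a9 numbered 1, 17 and 12, of which 9 were T-class, 6 microglia and 13 unassigned. Their Csf3r level was 353, 170 and 877 CPM, and they held 0.555%, 4.05% and 24.97% of its reads. In these 30 cells Csf1 was at 0.360 CPM and Flt3 was not read. B cells held 32.4, 18.05 and 15.9 CPM of Csf3r, or 12.8%, 7.54% and 11.3% of the microglial level, beside the marker medians of 7.77%, 12.6% and 12.2%. T cells had 18.7, 87.2 and 101 CPM, and a single cell held 90.7%, 93.6% and 34.1% of these reads. Without the granulocyte-high cells the levels in T cells were 1.83, 145 and 31.7 CPM, so that the 7 dpi level came from a cell outside that set.

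The GM-CSF receptor chains were read at low levels, each at 10 CPM or more in a minority of microglia. Csf2ra (chromosome 19, 61223957-61228429, minus strand) stood at 38.9 CPM (38.1–39.7), 24.3 CPM (23.7–24.9) and 29.7 CPM (28.1–31.2) in microglia of the uninjured, 7 dpi and 60 dpi libraries. The share of microglia at 10 CPM or more was 26.1%, 27.8% and 22.4%, with overlapping intervals. The log2 ratios of -0.66 and -0.38 did not pass the 2-fold rule, although the 60 dpi value was -1.33 as a mean of single-cell CPM and -1.19 without cells with a Y-linked read. Csf2ra in B cells was lower, at 4.06, 4.80 and 12.5 CPM. The 60 dpi level in B cells passed the rule (log2 ratio 1.42), but with stricter classes the ratio was -0.33.

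Csf2rb, the shared signalling chain, had a higher summed level in microglia after injury, while the intervals of its share of cells overlapped. It lies on chromosome 15 (78325752-78353847, plus strand), 20030 bases from its close copy Csf2rb2, so reads may have been split between the pair and both values are uncertain. Microglia had 34.0 CPM (33.2–34.7), 53.6 CPM (52.6–54.5) and 76.2 CPM (73.8–78.7) of Csf2rb. The log2 ratio of 1.14 at 60 dpi passed the 2-fold rule and that of 0.64 at 7 dpi did not. The share of microglia at 10 CPM or more was 12.5%, 12.04% and 18.4%, with overlapping intervals. With the top cell of each library left out the log2 ratio at 60 dpi was 1.01.

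Csf2rb2 in microglia stood at 26.2, 14.7 and 10.3 CPM, but 1 cell held 87.2% of these reads in the uninjured cord and 82.0% at 60 dpi. At 10 CPM or more were 3.63%, 7.41% and 4.80% of microglia. In B cells Csf2rb was at 1.39 CPM in the uninjured cord, 14.0 CPM at 7 dpi and 18.2 CPM at 60 dpi, with log2 ratios of 2.65 and 3.01. At 7 dpi 1 cell gave 82.3% of the reads, and with stricter classes the 7 dpi ratio was -0.27, from 5 B cells. T cells held 0 reads of Csf2rb in the uninjured cord, which allows up to 0.141 CPM, and 12.8 CPM at 60 dpi.

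Of 197 microglia with Csf2ra at 10 CPM or more, 30 also had Csf2rb, or 15.2%, against 13.3% of all microglia. The difference between these shares was not tested. The ligand Csf2 was read only at 60 dpi, at 13.3 CPM in microglia and 3.87 CPM in B cells, and 1 cell held 92.1% and 69.6% of these reads. Csf3, the ligand of Csf3r, had 0 reads in microglia, B cells and T cells of all 3 libraries.

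Among microglia, B cells and T cells, the summed Il7r level was highest in T cells in every library. At 7 dpi this rank rested on 1 of the 9 T-class cells, without which the T cell level lay below the 211 CPM of B cells. In B cells Il7r was read after injury but hardly in the uninjured cord, where microglia had more (63.7 CPM). The gene lies on chromosome 15 (9505788-9530176, minus strand). B cells had 0.501 CPM (0.229–0.950) in the uninjured cord, from 9 reads in 27 cells, 211 CPM (206–215) at 7 dpi and 188 CPM (186–190) at 60 dpi. The log2 ratios to the uninjured level were 7.14 and 6.98, both past the 2-fold rule, as were 38.4% of 7990 genes higher at 7 dpi and 41.9% of 8553 higher at 60 dpi. At 10 CPM or more were 1 of 27 uninjured B cells (3.70%, 95% interval 0.0937–19.0%), 10 of 31 at 7 dpi (32.3%, 16.7–51.4%) and 129 of 483 at 60 dpi (26.7%, 22.8–30.9%). The interval of the uninjured share overlaps that at 7 dpi and ends below that at 60 dpi.

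The B cells of the libraries were not of the same kind. B cells with at least 300 CPM of the surrogate light chain genes Igll1, Vpreb1 and Vpreb2, which are part of the pre-B cell receptor (pre-BCR), numbered 0 in the uninjured cord, 8 at 7 dpi and 92 at 60 dpi. The rest were divided by the MHC class II genes H2-Aa, H2-Ab1 and Cd74 at 2000 CPM, a division added after the data were seen. Il7r stood at 291 CPM and 215 CPM in the pre-BCR-positive cells of 7 and 60 dpi. MHC-II-low B cells had 0.172, 272 and 255 CPM in the order uninjured, 7 dpi and 60 dpi, from 9, 14 and 197 cells. MHC-II-high B cells had 0.659, 1.81 and 97.3 CPM, from 18, 9 and 194 cells.

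Thus Il7r was not limited to the pre-BCR-positive cells, and at 7 dpi the MHC-II-high cells had almost none: in these the log2 ratio to the uninjured level was 0.76, against 7.87 in the MHC-II-low cells. At 60 dpi 33.7% of pre-BCR-positive cells, 35.0% of MHC-II-low and 14.9% of MHC-II-high B cells reached 10 CPM, and the last interval (10.2–20.8%) lies below the others. B cells with Rag1, a gene of receptor rearrangement, at 10 CPM or more had Il7r in 39 of 111 cells at 60 dpi (35.1%, 26.3–44.8%) and the other B cells in 90 of 372 (24.2%, 19.9–28.9%). At 60 dpi B cells with the mature marker Ms4a1 at 10 CPM or more had an Il7r level of 101 CPM, and those under it 265 CPM. The shares of these cells with Il7r were 22.5% (17.5–28.3%) and 31.0% (25.2–37.2%), with overlapping intervals. Leaving out cells with a Y-linked read lowered the 7 dpi level in B cells to 59.5 CPM and left the 60 dpi level at 205 CPM.

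**Figure D4:**
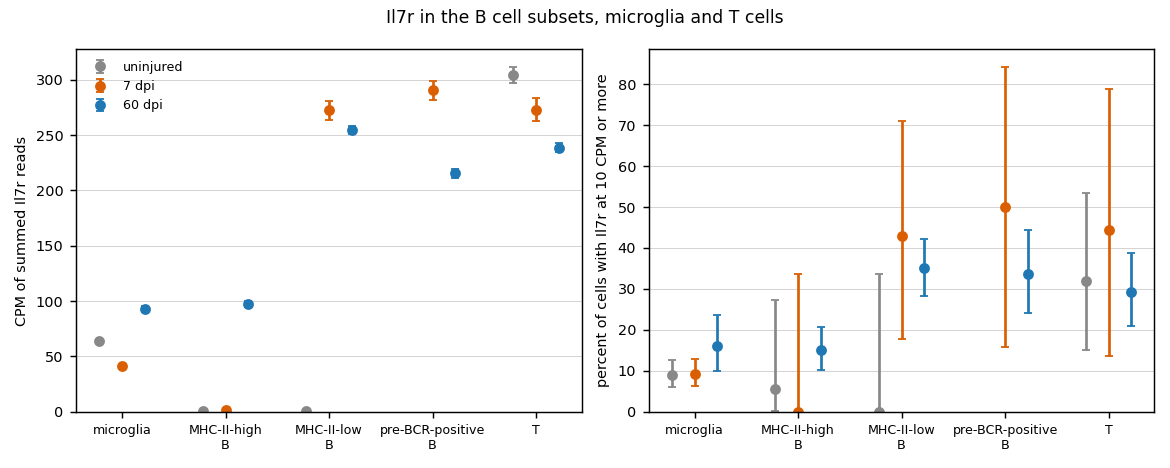
Il7r in microglia, 3 B cell subsets and T cells as CPM of the summed reads (left) and as the percent of cells at 10 CPM or more (right), with exact 95% intervals; grey is uninjured, orange 7 dpi and blue 60 dpi. In MHC-II-low B cells the level was 0.172, 272 and 255 CPM, and the uninjured cord held no pre-BCR-positive B cell.

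T cells carried Il7r in every library, at 304 CPM (297–312) in the uninjured cord, 273 CPM (263–283) at 7 dpi and 239 CPM (234–243) at 60 dpi. The log2 ratios of -0.16 and -0.35 did not pass the 2-fold rule. At 10 CPM or more were 8 of 25, 4 of 9 and 31 of 106 T cells, or 32.0%, 44.4% and 29.2%, with overlapping intervals. One cell held 82.2% of the reads at 7 dpi, and without the top cell of each library the 7 dpi level was 54.8 CPM against 212 CPM, a log2 ratio of -1.93.

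Microglia had Il7r in few cells. Its level there was 63.7, 41.0 and 92.7 CPM, and 8.91%, 9.26% and 16.0% of microglia reached 10 CPM, with the median cell at 0. The partner chain Il2rg was read at 36.8, 104 and 209 CPM in microglia, 690, 116 and 409 CPM in B cells and 306, 188 and 680 CPM in T cells. Among B cells with Il7r at 10 CPM or more, 76 of 140 also had Il2rg (54.3%), against 59.1% of all B cells. The ligand Il7 gave 8 reads in all classes, in 1 microglial cell at 60 dpi.

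Kit and Flt3 marked a small number of cells, all after injury at 10 CPM or more. Both lie on chromosome 5, Kit at 75574916-75656722 (plus strand) and Flt3 at 147330741-147400489 (minus strand). Cells with Kit at 10 CPM or more numbered 0 in the uninjured cord, 5 at 7 dpi and 17 at 60 dpi. Of these 22 cells 11 were B cells, 7 unassigned, 3 T-class and 1 microglial. At 60 dpi 55.0% of the 1589 Kit reads were in pre-BCR-positive B cells, where the level was 18.6 CPM (17.4–19.9), against 0.679 CPM in MHC-II-low and 0.877 CPM in MHC-II-high B cells. That level rests on 6 cells with a read, and 1 of them gave 45.4% of the reads. The 5.89 CPM of Kit in microglia at 60 dpi came almost whole (96.9%) from 1 cell.

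The cells with most Kit differed among themselves. The 3 highest were B cells at 60 dpi with 1702, 560 and 375 CPM, and with 9617, 5120 and 7921 CPM of Vpreb1, though the first held only 77 Kit reads. The fourth, at 7 dpi, was unassigned, with 2739 CPM of Siglech, 1 of 7 dendritic cell markers counted. These 7 markers also summed to 465 CPM in uninjured microglia, so Siglech alone does not name the cell. The fifth was T-class with 88839 CPM of S100a8. Cpa3, a mast cell protease, was at 10 CPM or more in 1 of the 22 cells.

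Flt3 reached 10 CPM in 0, 4 and 23 cells, of which 10 were B cells, 10 unassigned, 3 double-positive, 2 T-class and 2 microglial. Its highest class level was 19.3 CPM (18.1–20.4) in unassigned cells at 60 dpi, from 7 such cells, against 0.165 CPM there in the uninjured cord and 1.69 CPM at 7 dpi. In B cells it stood at 0.0556, 0.944 and 2.20 CPM. Unlike Kit, its B cell reads at 60 dpi lay mainly in MHC-II-high cells (5.18 CPM, against 1.09 CPM in pre-BCR-positive and 0.183 CPM in MHC-II-low B cells). Of the 360 reads in MHC-II-high cells 283 (78.6%) came from 2 cells. Flt3 and Kit were found together in 2 cells, Il7r and Kit in 3, and Il7r and Flt3 in 4. A further 105 cells had 1 to 9 reads of Flt3 under 10 CPM.

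Of the ligands of these receptors, Flt3l was highest in T cells at 60 dpi, at 31.7 CPM, with 20.2 CPM in the uninjured cord and 0 reads at 7 dpi. In uninjured B cells its 29.6 CPM came from 1 cell. Kitl, stem cell factor, stood at 7.38 CPM in uninjured microglia, where 1 cell gave 91.0% of the reads, and at 2.67 CPM in B cells at 60 dpi.

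Few of the 9 genes differed 2-fold between conditions in microglia. At 7 dpi 6 genes were at 10 CPM or more and 1 of them, Csf1, was called higher, with none lower, where 14.4% of 8708 genes were called higher and 20.8% lower. At 60 dpi 1 of 6, Csf2rb, was higher and 1, Csf1, lower, where 26.5% of 9219 genes were higher and 21.9% lower. Between the injured libraries, 60 dpi over 7 dpi, Il7r was higher in microglia (log2 ratio 1.16) and Csf1 lower (-2.82), where 26.2% and 15.7% of genes were called.

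In B cells at 7 dpi 2 of 4 genes were higher, Csf2rb and Il7r, where 38.4% of 7990 genes were higher and 26.8% lower. At 60 dpi 3 of 5, Csf2ra, Csf2rb and Il7r, were higher and 1, Csf1r, lower, where 41.9% of 8553 genes were higher and 18% lower. In T cells at 60 dpi 4 of 5 were higher (Csf1, Csf1r, Csf2rb and Csf3r), where 48.5% of all genes were, and at 7 dpi, with 9 cells, 2 of 4 were higher and 1 lower, where 35.3% and 40.9% of genes were. Each of these ratios sets 1 library against 1 other.

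Microglia and lymphoid cells were also set side by side within each library. In the uninjured cord all 6 genes at 10 CPM or more were higher in microglia than in B cells, where 42.4% of 8631 genes were. At 7 dpi 5 of 6 and at 60 dpi 4 of 5 were higher, where 30.5% and 22.4% of genes were, and in both libraries Il7r was the gene lower in microglia, where 33.2% and 25.5% of genes were lower. Over T cells, 5 of 6, 4 of 6 and 3 of 6 genes were higher in microglia, where 50.6%, 51.1% and 28% of genes were, and Il7r was lower in microglia in every library, where 25.2%, 25.6% and 24% of genes were.

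A list of 48 other genes of these pathways, of ligands, receptors, signalling proteins and transcription factors, was counted whole. In microglia at 7 dpi 26 were at 10 CPM or more, where 14.4% of all genes were higher and 20.8% lower: 3 were higher (Il2rg, the kinase subunit Pik3cd and the survival gene Bcl2, with log2 ratios of 1.47, 1.80 and 1.98) and 1 was lower (the kinase Tyk2, -1.16). Their median of -0.20 lay beside -0.19 for all genes. At 60 dpi, where 26.5% of all genes were higher and 21.9% lower, 5 of 29 were higher, with Il2rg at 2.47 and Bcl2 at 2.01, and 7 were lower, among them Il15ra (-2.48), the transcription factor Runx1 (-1.74), Tyk2 (-1.35) and Cebpa (-1.10), with a median of 0.14 against 0.10. Ebf1, a B lineage factor, was among the 5, at 27.5 CPM against 0.171 CPM, beside the Ms4a1 reads named above.

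In B cells at 7 dpi 4 of 26 were higher and 11 lower, where 38.4% of all genes were higher and 26.8% lower. The 4 were Tyrobp (log2 ratio 1.98), an adaptor of myeloid receptors, Cebpb (2.52) and the kinases Tyk2 (4.04) and Lyn. The 11 were Flt3l, Il2rg (-2.56), Il4ra (-3.65), Il21r, Jak1 (-1.84), Jak2 (-3.56), Stat5b (-6.24), Grb2 and the inhibitors Cblb, Socs1 and Socs2. The summed granulocyte markers in the B class were 46.6, 2631 and 1084 CPM and the monocyte and macrophage markers 30.9, 681 and 343 CPM, and their part in the myeloid genes was not tested. At 60 dpi 9 of 31 were higher, where 41.9% of all genes were higher and 18% lower, with Tyrobp at 1.37 and Cebpb at 3.76, and 4 were lower: Flt3l (-1.94), Il4ra (-1.91), Stat5b (-2.30) and the inhibitor Socs2 (-1.53). The medians of the list were -0.72 at 7 dpi and 0.24 at 60 dpi, against 0.30 and 0.51 for all genes. Of the 12 other receptors in the list, 4 of 7 were higher in B cells at 60 dpi and 1, Il4ra, was lower. They included Il2ra, at 13.04 CPM against 1.17 CPM.

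The genes most like each receptor over single cells were found by the mean over the 3 libraries of Pearson's r of log2 CPM, among 6870 genes read in at least 10% of cells. The cells share their library, depth and mix of classes, so this describes the table only. Csf1r ran closely with Ctss (0.51), Ctsd (0.49), Tmem119 (0.46) and Cst3 (0.45), all abundant in microglia. Csf3r ran with Tmem119 (0.26), Ctsd (0.25), Cd9, Ctss and Cx3cr1 (0.23), and Csf2ra with Csf1r itself (0.20) and Lgmn (0.19). The values for Csf1 (Ier3 0.14 and Osm 0.13), Csf2rb (Nrp1 0.15) and Il7r (Sit1 0.18) were weak. Between the receptors themselves, Csf1r and Csf3r had the steadiest relation, with 0.22, 0.23 and 0.22 in the 3 libraries, and Csf2ra and Csf2rb one of 0.00, 0.09 and 0.08.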

How the data were processed

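CD45+ cells were sorted from the spinal cord and processed on ICell8 chips. By the study's methods the authors demultiplexed reads to cells, aligned them with STAR to the mouse genome mm10 and tabulated counts in R, and the labels' processing notes name Seurat. The gene annotation and cell filters were not given in the sources used here. The deposited values are raw read counts per gene and cell, and 0 columns belonged to no library. The 9 genes, the gene lists and the class rule were chosen with earlier results of these data known.

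For each class and library, counts of its cells were added up and scaled to CPM. Shares of cells with a read used thinning to 50000 reads per cell, which left out 7, 2 and 27 shallower cells, and shares at 10 CPM or more used every cell. Depth is given with the results. Every cell was kept, with no doublet caller. A count of 0 is given with the level that 3 counts allow, and genes at 0 lie beyond every median quoted, also at that limit. Alternatives were other class cuts, stricter classes, subsets of B cells, pseudocounts, minimum levels, thinning depths, single-cell means, and leaving out the top cell or cells with a Y-linked read. Named were the 9 genes, class markers where a result turned on them, pathway genes past the 2-fold rule and, for genes read in at least 10% of cells, genes among the 5 most like them, of which 1 is not reported here. Positions are those of GENCODE vM21. Python 3.11.15, numpy 2.4.6, scipy 1.17.1 and pandas 2.3.3 were used, and the calculations were tested on simulated data.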

Additional observations from a re-analysis of the deposited data

Results flagged for a closer look

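For 2 genes the log2 ratio of 60 dpi over the uninjured cord had opposite signs in 2 cell classes, and these differences were not tested. For Csf1 it was -1.37 in microglia and 3.58 in T cells, where 1 cell held 74.0% of the reads at 60 dpi. Without cells with a Y-linked read the T cell ratio was 0.30. For Csf1r the ratio was -1.05 in B cells and 1.30 in T cells, at levels of 84.5 and 156 CPM at 60 dpi, against 1096 CPM in microglia.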

How the results depend on the processing

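Of the log2 ratios recomputed under other settings, 290 stayed on their side of the 2-fold rule, 24 passed it newly and 21 no longer passed it. Another 8, which had passed it in the main setting, changed sign. Changes of sign were not counted for ratios that had not passed the rule in the main setting. The cause of these differences was not tested. Csf1 in microglia at 60 dpi over the uninjured cord was at -0.69 as a mean of single-cell CPM, -0.86 with a pseudocount of 10 CPM and -0.63 without cells with a Y-linked read. Il7r in B cells at 7 dpi was at 0.76 in MHC-II-high cells. With stricter classes the ratio at 60 dpi was 0.53 for Csf1r and -0.33 for Csf2ra in B cells and -0.11 for Csf1r in T cells, and that of Csf2rb in B cells at 7 dpi was -0.27. Csf1r in B cells at 60 dpi was at 0.046 in MHC-II-high cells. In T cells at 7 dpi Csf1r was at 1.16 with the class cuts doubled, and Csf3r at -4.08 with the cuts halved and at -2.84 without cells with a Y-linked read. Stricter classes left no T cell at 7 dpi.

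Microglia with a Csf1r read made up 99.0% in the uninjured cord and 98.1% at 7 dpi with thinning to 100000 reads, and 99.3%, 100% and 88.8% without thinning. B cells with an Il7r read were 20% at 7 dpi with stricter classes, and at 60 dpi 22.5% with thinning to 20000 reads and 37.5% without thinning. The number of the 9 genes called in microglia at 60 dpi was 1 at a minimum of 50 CPM and 0 with a pseudocount of 10 CPM. In B cells it was 1 at 7 dpi at the minimum of 50 CPM, and at 60 dpi 7 with no minimum, 2 at 50 CPM and 2 with the pseudocount of 10 CPM. The microglial share of Csf1 reads was 99.6%, 78.2% and 8.89% without the top cell of each library, 85.5% at 7 dpi and 8.97% at 60 dpi with each cell weighted by its CPM, and 79.3% and 0.299% with stricter classes. No replicate could be left out, and no paired analysis was possible because each condition has 1 library.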
